A study of Homo sapiens with 16 samples.

Results

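Collagen genes were taken as all genes of the deposited count tables whose symbol is COL, a number, A and a number. The tables listed 42 of them among 20314 genes in U251 cells and the same 42 among 20626 genes in U343 cells, with the same hg18 span in both for 42. U251 and U343 are established human glioblastoma cell lines. Cells of each line received a control miRNA mimic or a miR-137 mimic by reverse transfection at 25 nM, and RNA was collected 48 hours later. Total RNA was sequenced (RNASeq), as was RNA that came down with antibodies to PABP, the poly(A)-binding protein that coats the tails of messenger RNAs (RIPSeq). Each of the 8 groups of cell line, assay and mimic had 2 libraries, 16 in all, and both mimic groups went through the same lipid transfection and ribosomal RNA depletion. U251 libraries were made with random hexamers and U343 libraries with another kit, so cell line and library kit cannot be told apart. Nothing in the labels says that the libraries of a group came from separate cultures, so p-values may measure technical spread only.

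Collagens are extracellular or membrane-bound proteins whose chains wind around one another into a stiff helix, and most genes encode a single chain that pairs with chains of partner genes. Fibrillar collagens form the fibres of connective tissue, type IV collagen forms the sheets of basement membranes, type VI forms beaded filaments, and the FACIT collagens sit on the surface of fibrils. In normal brain, collagen lies mainly in vessel walls and meninges, whereas cultured glioblastoma cells are known to transcribe many collagen genes themselves.

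The mature strand of the transfected mimic is shown because every comparison of mimics rests on it. Capitals mark the seed, bases 2 to 8, and the sequence is that of RefSeq for human miR-137 (GRCh38.p14, chr1:98046091-98046113, minus strand).
hsa-miR-137-3p: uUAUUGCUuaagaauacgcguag
The 6 type IV collagen genes lie head to head in 3 pairs. Bases upstream of both genes of a pair are shown because the chains of a pair did not always move together below. Each stretch is the part of the GRCh38.p14 plus strand that RefSeq promoter windows of both genes cover. Capitals mark CCAAT and GGGCGG on either strand. The start sites have 126 bases between them for COL4A1 and COL4A2, 418 for COL4A3 and COL4A4 and 379 for COL4A5 and COL4A6. Only the first stretch therefore spans all of these bases, and the other stretches are parts.
COL4A1 and COL4A2, chr13:110307158-110307283, 126 bases: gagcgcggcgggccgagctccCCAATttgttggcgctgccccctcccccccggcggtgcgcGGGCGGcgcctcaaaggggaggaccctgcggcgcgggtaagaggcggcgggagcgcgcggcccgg
COL4A3 and COL4A4, chr2:227164374-227164455, 82 bases: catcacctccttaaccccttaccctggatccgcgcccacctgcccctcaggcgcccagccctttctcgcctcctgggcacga
COL4A5 and COL4A6, chrX:108439588-108439708, 121 bases: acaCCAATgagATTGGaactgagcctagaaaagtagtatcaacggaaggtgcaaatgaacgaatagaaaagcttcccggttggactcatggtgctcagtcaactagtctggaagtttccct
The COL4A1 and COL4A2 stretch held 1 CCAAT and 1 GGGCGG and was 80.2% G and C, the COL4A3 and COL4A4 stretch held neither and was 67.1% G and C, and the COL4A5 and COL4A6 stretch held CCAAT 1 time on each strand and was 44.6% G and C. RefSeq promoter windows, taken around the start site, were matched for 30 of the 42 genes. The first listed window of each gene was used. CCAAT, on either strand, was in 10 of these genes (33.3%) against 35.7% of the 27305 genes with a window, TATAAA in 5 (16.7%) against 12% and GGGCGG in 18 (60%) against 44.6%. Those 27305 genes are not the set of genes in the count tables. These are matches of letters, and no binding was measured here.

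The libraries held 10156675 to 18224061 counted reads in U251 RNASeq, 22359794 to 30731476 in U251 RIPSeq and 37736206 to 45134766 in U343. Levels are given as CPM, reads relative to the TMM-scaled total of the library. Libraries of a group differed by a median of 0.0639 to 0.209 (absolute log2 ratio over genes of at least 1 CPM), except that the U251 RIPSeq control libraries differed by 0.641 and stood apart from each other. Over the collagens of at least 1 CPM this median was 0.508 in the U251 RIPSeq controls and 0.0745 to 0.322 in the other groups. In each of those other groups it was larger than over all genes, as with 0.308 against 0.120 in U343 RIPSeq miR-137. A list of 12 interferon-induced genes summed to 143 to 207 CPM in the control libraries and to 10952 to 12971 CPM in 7 of the 8 miR-137 libraries, and to 149 CPM in the U343 RNASeq miR-137 library of replicate 1, which stood apart from its partner. The mimic itself could not be checked in the counts, since the MIR137 locus held 0 to 5 reads in every library. All 9 glioma or astrocytic markers had reads in every library and summed to 6218 to 16697 CPM. Of 7 fibroblast or pericyte markers, which would mark collagen-rich stromal cells, the summed level was 83.3 to 458 CPM over the 16 libraries. Its most abundant member was PDGFRA in U251 RNASeq, at up to 274 CPM, and THY1 in the other libraries, at up to 319 CPM, while DCN stood at 0 to 0.215 CPM and LUM at 0 to 4.27 CPM. The part of these cell types in the results was not tested. Endothelial, epithelial, neuron, oligodendrocyte and leukocyte markers summed to at most 65.8, 1486, 63.2, 6.01 and 3.22 CPM, the first pair of lists being highest in U343.

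In the control libraries of total RNA, collagen genes held 0.210% ± 0.0358 (SD, n = 2) of counted reads in U251 and 1.01% ± 0.0341 in U343. In PABP-bound RNA of control cells the shares were 0.554% ± 0.144 and 1.48% ± 0.117. With the miR-137 mimic, the share was 0.257% ± 0.0221 in U251 RNASeq, 0.319% ± 0.00336 in U251 RIPSeq, 0.827% ± 0.0698 in U343 RNASeq and 1.12% ± 0.155 in U343 RIPSeq. The mimic groups did not overlap in any of the 4 experiments, the miR-137 libraries lying above the controls in U251 RNASeq and below them in the other 3. With 2 libraries against 2 no exact permutation test can reach the threshold, and no test was made of these sums. With TMM-scaled totals the U251 RNASeq mean was 0.230% in control and 0.235% in miR-137 libraries, and the 2 groups then overlapped.

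The cell lines drew their collagen reads from different classes. In U343, type VI genes took 80.1% to 88.5% of all collagen reads of a library, and COL6A1 alone took 66.9% to 75.8%. In U251, type VI took 5.37% to 17.8%, fibrillar genes took 30.4% to 37.2%, type IV genes 13.8% to 22.6% and FACIT genes 8.98% to 28.2%. Without type VI, collagens held 0.191% of reads in U343 RNASeq controls and 0.197% in U251 RNASeq controls. Shares of reads follow transcript length as well as level, so they do not rank the genes by number of transcripts.

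**Figure D1:**
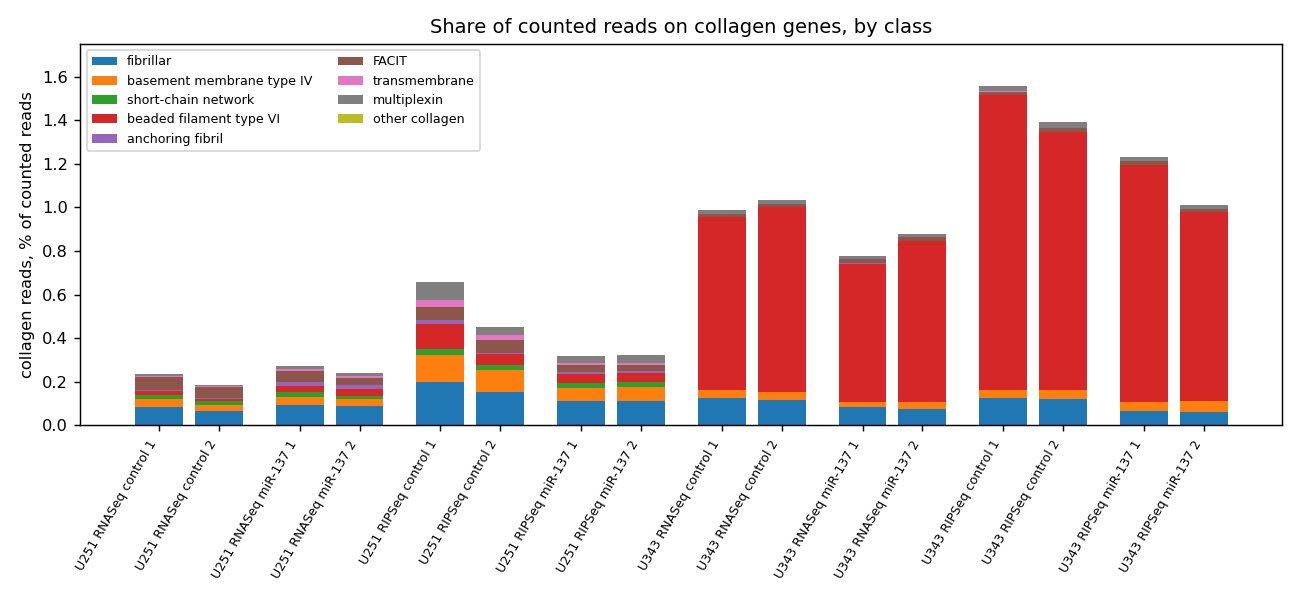
Share of counted reads on collagen genes (y axis, percent) in each of the 16 libraries (x axis), stacked by collagen class. U343 libraries reach 0.778% to 1.56%, mostly type VI, and U251 libraries 0.185% to 0.656%, spread over several classes.

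The first comparison asked how control-mimic U343 cells differed from control-mimic U251 cells in total RNA. Of 33 collagen genes tested, 17 were lower and 12 higher in U343 (edgeR quasi-likelihood test, adjusted p under 0.05), beside 39.9% of all genes called lower and 44.9% called higher. In percent of those tested, 51.5% of collagens were lower and 36.4% higher, so most collagens and most genes alike differed between the lines. The median log2 fold change was -1.13 over the collagens and 0.10 over all genes. COL6A1, COL6A2, COL6A3, COL5A3 and COL9A2 were far higher in U343, and type I, COL5A1, COL8A1 and COL13A1 far higher in U251. The 9 other fits gave 11 to 19 collagens lower and 11 to 13 higher.

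The second comparison asked which collagen transcripts made up a larger part of PABP-bound RNA than of total RNA in control cells. In U251, 9 of 32 collagens tested were higher and 1 was lower in RIPSeq, beside 7.87% of all genes higher and 6.14% lower. In U343, 8 of 29 were higher and 7 lower, beside 24.4% and 24.2% of all genes. COL4A2, COL5A1, COL6A1, COL6A2 and COL18A1 were called higher in RIPSeq in both lines, and COL10A1 lower in both. The collagen median was 1.19 in U251 against -0.006 over all genes, and 0.13 in U343 against -0.02. The U251 count rests on RIPSeq control libraries that stood apart: it was 21 without RIPSeq control replicate 1 and 31 without replicate 2, where the calls over all genes were 3695 higher and 3564 lower of 13220, and 5709 and 5459 of 14711. It was 3 without RNASeq control replicate 1 and 0 without replicate 2, with 87 higher and 176 lower of 15224 genes, and 41 and 186 of 15273. With no filter beyond 1 read it was 0, beside 16 higher and 84 lower of 19768 genes. In U343, DESeq2 called 8 collagens higher and 1 lower, beside 3300 higher and 3006 lower of 19890 genes.

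**Figure D2:**
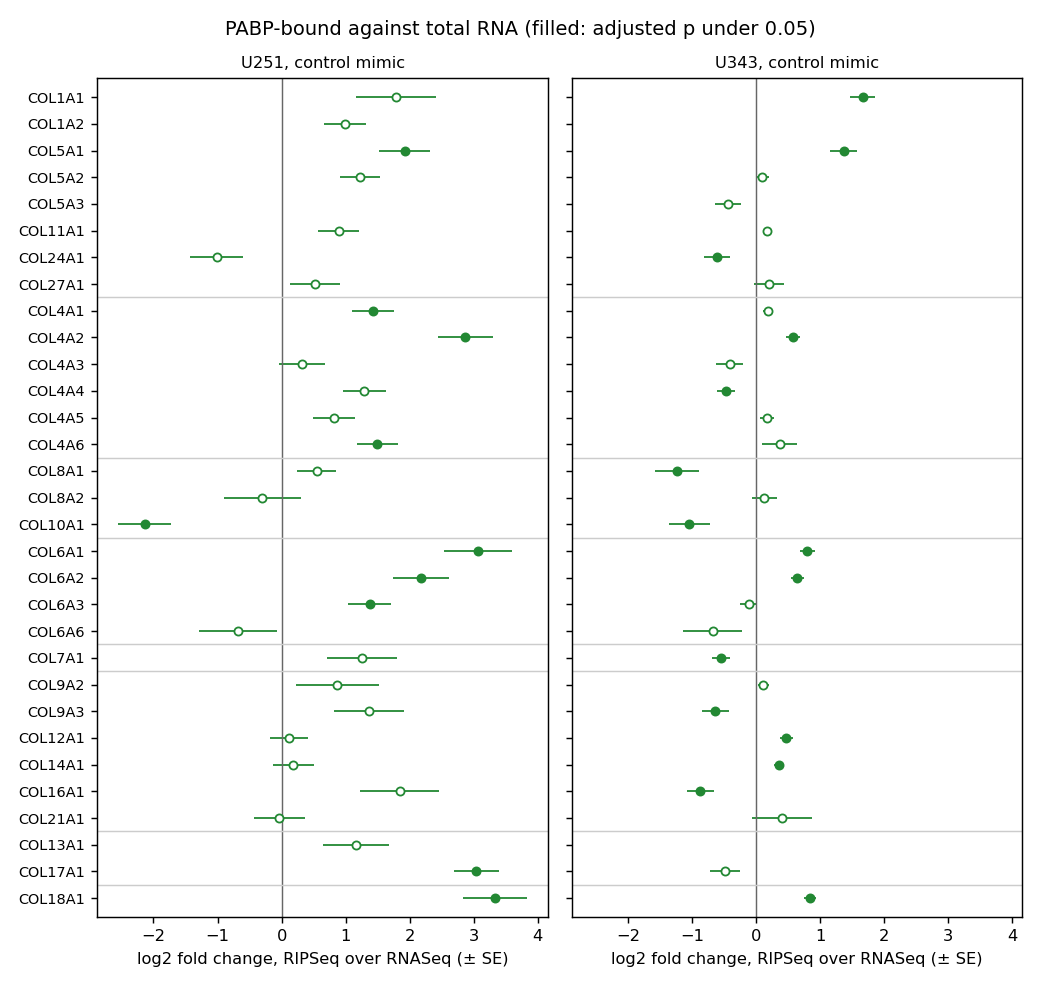
Log2 fold change of RIPSeq over RNASeq (x axis, ± SE from the edgeR fit) for 31 collagen genes (y axis, grouped by class) in control-mimic U251 (left) and U343 (right); filled points passed an adjusted p of 0.05. Most U251 points lie right of 0, up to 3.33 for COL18A1, whereas U343 points lie on both sides.

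The third set of comparisons asked what the miR-137 mimic changed. In U251 total RNA, 22 of 32 collagens tested were called, 15 higher and 7 lower, beside 28.7% of all genes higher and 29% lower. In U343 total RNA, 9 of 30 were higher and 4 lower, beside 8.31% and 11.7% of all genes. In U343 PABP-bound RNA, 10 of 28 were higher and 4 lower, beside 28.5% and 27.8%. In U251 PABP-bound RNA, edgeR called 0 of 35, beside 0.944% of all genes higher and 0.263% lower. There, 13 collagens were lower and 3 higher at an unadjusted p under 0.05, as were 2828 of 14087 genes in either direction. DESeq2 called 5 collagens lower and 1 higher, beside 325 lower and 516 higher of 19820 genes.

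Of the 42 genes, 36 were tested in at least 1 of the 4 comparisons and 29 of these were called at least 1 time (80.6%), beside 69.9% of 16213 genes. Among the 36, 19 were called only higher (52.8%), 3 only lower (8.33%; COL4A4, COL11A1 and COL14A1) and 7 lower in one comparison and higher in another (19.4%). The same shares over all genes were 33%, 31.3% and 5.65%. COL1A1 and COL16A1 were higher in 3 comparisons and COL11A1 was lower in the same 3. The medians over the collagens were 0.46 (U251 RNASeq), -0.45 (U251 RIPSeq), -0.15 (U343 RNASeq) and 0.033 (U343 RIPSeq), where those over all genes lay between -0.019 and 0.023. Fold changes of the 4 experiments come from separate fits, each with its own scaling. Calls lost under other settings are named below for some genes only. In the accounts of single genes below, values in CPM are those of replicates 1 and 2 in that order, and a log2 fold change with its SE is followed by the Benjamini-Hochberg adjusted p of edgeR over all genes tested.

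**Figure D3:**
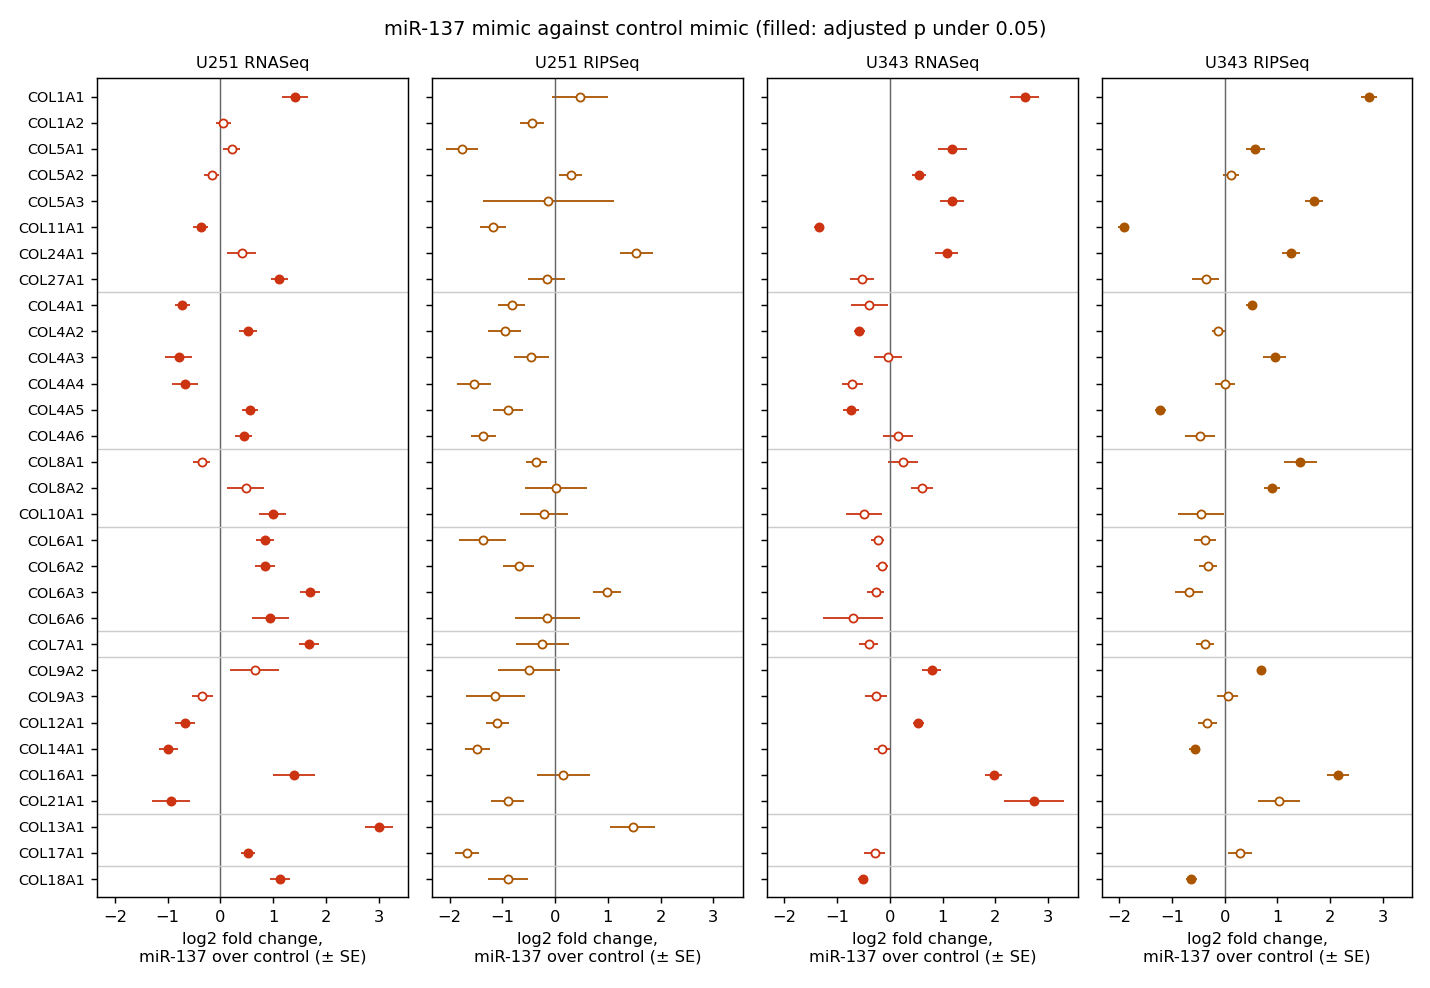
Log2 fold change of miR-137 over control mimic (x axis, ± SE) for 31 collagen genes (y axis, grouped by class) in the 4 experiments; filled points passed an adjusted p of 0.05 in edgeR. COL1A1 and COL16A1 lie right of 0 and filled in 3 panels, COL11A1 left of 0 and filled in the same 3, and the U251 RIPSeq panel has no filled point.

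Several counts rest on single libraries. In U343 RNASeq no gene at all, collagens included, was called without control replicate 1 (0 of 15426) or without control replicate 2 (0 of 15539). Without the miR-137 library of replicate 1, the one with interferon genes at the control level, 15 collagens were called beside 3152 genes lower and 2994 higher of 15509, and without its partner 16 beside 2951 lower and 2811 higher of 15281. In U251 RIPSeq 26 were called (18 lower, 8 higher) without control replicate 1, beside 5052 genes lower and 4689 higher of 14309. Without control replicate 2, 30 were called (26 lower, 4 higher), beside 5366 genes lower and 6304 higher of 15682. In U251 RNASeq, upper-quartile scaling moved the median of all genes from 0.015 to 0.16 and gave 15 collagens higher and 4 lower, while the calls over all genes went from 3749 higher and 3780 lower to 4588 and 3001. A joint fit of the 8 U251 libraries, which include the divergent RIPSeq controls, called 5 higher and 1 lower there, beside 1615 and 1336 of 14210 genes. The interferon list was higher for 12 of 12 genes in both U251 experiments (median log2 fold change 6.51 and 7.22), for 11 of 12 in U343 RIPSeq and for 0 of 12 in U343 RNASeq, where its libraries disagreed. Its part in the collagen results was not tested.

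The collagens called in U251 total RNA were also set against the difference between the U251 RIPSeq control libraries. Of the 15 collagens called higher with miR-137 in U251 RNASeq, 13 were higher in RIPSeq control library 1 than in library 2. Of the 7 called lower, 6 were lower in library 1. These counts are of signs only and include small log2 differences, such as 0.076 for COL4A6 and 0.23 for COL17A1. The same share over all called genes was not counted. Across the 32 collagens the Pearson correlation of both differences was 0.65 (Spearman 0.70), against 0.34 (Spearman 0.40) across 12821 genes. Among all pairings of a library difference with a miR-137 comparison that were computed in both lines, it was the largest over the collagens. The libraries of the 2 axes are not shared, but genes of the same libraries are not independent of one another. With the difference between the U251 RNASeq control libraries in place of the RIPSeq ones, it was 0.25 over the collagens and 0.26 over all genes. With that between the U251 RNASeq miR-137 libraries, it was -0.58 and -0.040. Both of these share libraries with the other axis. Whether the U251 RNASeq calls hold any part of such a difference between libraries was not tested.

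**Figure D4:**
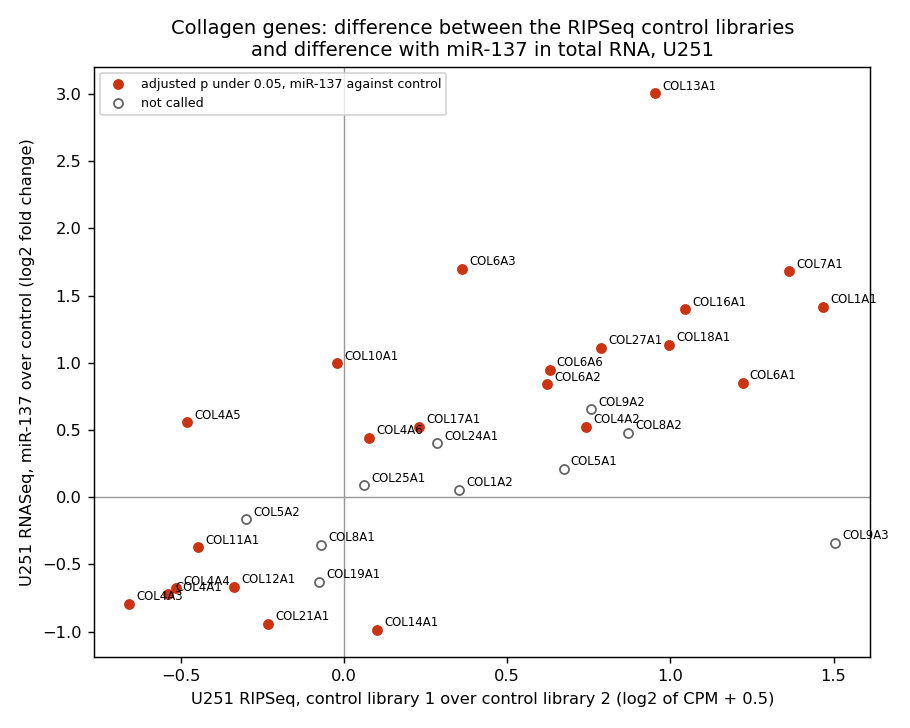
Log2 difference between the U251 RIPSeq control libraries, library 1 over library 2 (x axis, CPM + 0.5), against the log2 fold change of miR-137 over control in U251 RNASeq (y axis) for 32 collagen genes; filled points passed an adjusted p of 0.05. The points rise from COL4A3 at the lower left to COL7A1 and COL1A1 at the upper right, and COL9A3 lies apart.

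**Figure D5:**
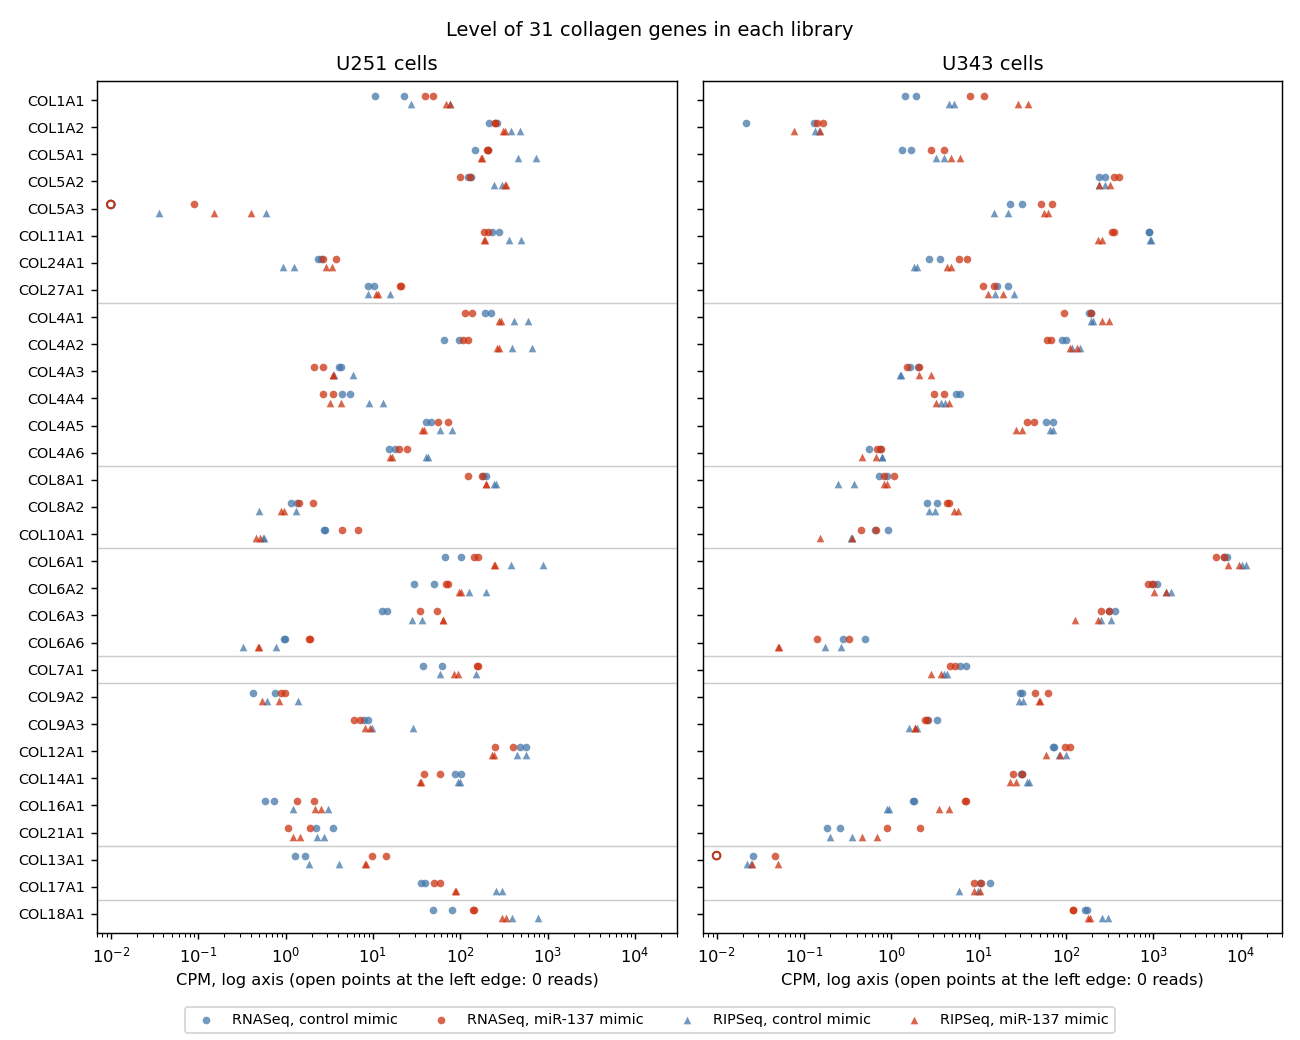
Level of 31 collagen genes (y axis, grouped by class) in each library (x axis, CPM on a log axis; open points at the left edge have 0 reads) in U251 (left) and U343 (right). Each point is a library, circles RNASeq and triangles RIPSeq, blue control and red miR-137 mimic; COL6A1 lies between 67.0 and 891 CPM in U251 and above 5149 CPM in U343.

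Type I collagen is the main fibre-forming collagen of skin, bone and tendon, and COL1A1 and COL1A2 encode its chains. COL1A1 stood at 22.8 and 10.6 CPM in the U251 RNASeq controls and at 39.7 and 49.3 CPM with miR-137. In U343 the values were 1.43 and 1.90 CPM in the RNASeq controls and 8.05 and 11.5 CPM with miR-137. All miR-137 libraries lay above both controls of their experiment, and the log2 fold changes were 1.42 ± 0.25 SE, adjusted p = 0.000337 in U251 and 2.56 ± 0.28 SE, adjusted p = 0.011 in U343. In U343 RIPSeq it went from 5.19 and 4.55 to 36.9 and 28.4 CPM (2.74 ± 0.16 SE, adjusted p = 9.48e-06). In U251 RIPSeq the controls, at 75.9 and 27.1 CPM, enclosed both miR-137 values of 68.0 and 75.5 CPM (0.48 ± 0.53 SE, adjusted p = 0.667).

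COL1A2 behaved apart from its partner. In U251 it held 265 and 215 CPM in control and 252 and 248 CPM in miR-137 total RNA, and these overlapped (0.056 ± 0.14 SE, adjusted p = 0.75). In U343 it was close to absent, with 1 and 5 reads in the RNASeq controls and 7 and 6 with miR-137. U251 controls held 7668 reads of it over 2 libraries and U343 controls 6, a ratio of 3233 in favour of U251 (95% exact interval 1485 to 8812, counting error only). COL1A1 differed less between the lines, by -3.28 ± 0.35 SE, adjusted p = 2.39e-05. The ratio of COL1A1 to COL1A2 reads was 0.0861 and 0.0494 in the U251 RNASeq controls and 0.158 and 0.199 with miR-137.

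Type V and type XI chains mix into fibrils and are known to limit their width. COL11A1 was the only collagen called lower in 3 comparisons. In U343 RNASeq it fell from 884 and 889 to 339 and 357 CPM, a fall of 2.55-fold (-1.35 ± 0.083 SE, adjusted p = 0.00647). In U343 RIPSeq the fall was from 937 and 924 to 259 and 234 CPM, 3.78-fold (-1.92 ± 0.11 SE, adjusted p = 9.91e-06). In U251 RNASeq the values were 275 and 234 in control and 207 and 185 CPM with miR-137 (-0.37 ± 0.14 SE, adjusted p = 0.0315), which no longer passed without the filter, with the filter of 50 reads, with upper-quartile scaling or in the joint fit. In U251 RIPSeq the values of 362 and 493 and 188 and 191 CPM did not overlap either, with -1.18 ± 0.25 SE, adjusted p = 0.113. U343 held more of it than U251 in the RNASeq controls (1.86 ± 0.12 SE, adjusted p = 6.95e-07).

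COL5A1 and COL5A3 were each far higher in one line. COL5A1 stood at 207 and 146 CPM in U251 and at 1.69 and 1.32 CPM in U343 RNASeq controls (-6.80 ± 0.22 SE, adjusted p = 1.82e-08). COL5A3 had 0 reads in both U251 RNASeq controls and 1429 and 859 reads in those of U343, which is at least 301-fold higher against a floor of 3 counts over the U251 group. COL5A2, the partner chain of both, was present in both lines, at 134 and 122 and at 279 and 241 CPM (1.08 ± 0.11 SE, adjusted p = 1.2e-05).

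With miR-137, COL5A3 rose in U343 from 30.9 and 22.7 to 69.6 and 51.4 CPM in RNASeq (1.17 ± 0.23 SE, adjusted p = 0.0341) and from 15.0 and 21.8 to 56.4 and 62.6 CPM in RIPSeq (1.70 ± 0.16 SE, adjusted p = 0.000107). COL5A1 rose in U343 RNASeq from 1.69 and 1.32 to 4.04 and 2.83 CPM (1.18 ± 0.27 SE, adjusted p = 0.0492), and in U343 RIPSeq from 3.24 and 4.03 to 4.79 and 6.08 CPM (0.58 ± 0.18 SE, adjusted p = 0.0284). In U251 RNASeq it did not pass the test at 207 and 146 against 207 and 202 CPM (0.21 ± 0.16 SE, adjusted p = 0.266). In U251 RIPSeq it had 736 and 462 CPM in control and 175 and 177 CPM in miR-137 libraries, apart but not called (-1.77 ± 0.30 SE, adjusted p = 0.0809). COL5A2 rose in U343 RNASeq, from 279 and 241 to 406 and 357 CPM (0.55 ± 0.13 SE, adjusted p = 0.0473), and was not called in the other 3 experiments.

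COL24A1 and COL27A1 encode minor fibrillar collagens. COL24A1 rose in U343, from 2.71 and 3.59 to 7.26 and 5.99 CPM in RNASeq (1.08 ± 0.22 SE, adjusted p = 0.0391) and from 1.82 and 1.99 to 4.30 and 4.80 CPM in RIPSeq (1.26 ± 0.17 SE, adjusted p = 0.000528), the RNASeq call being lost under the replicate block. In U251 it had 1.24 and 0.931 CPM in RIPSeq controls and 2.91 and 3.42 CPM with miR-137, without a call (1.54 ± 0.32 SE, adjusted p = 0.111). COL27A1 rose in U251 RNASeq, from 10.3 and 8.81 to 20.4 and 21.0 CPM (1.11 ± 0.16 SE, adjusted p = 6.35e-05), and stood at 21.9 and 16.2 against 15.1 and 11.2 CPM in U343 RNASeq, where it was not called (-0.53 ± 0.23 SE, adjusted p = 0.18). Its span holds MIR455, with 96 bases in common.

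Type IV collagen is the network collagen of basement membranes, and COL4A1 with COL4A2 makes its common form. The spans of these genes lie 134 bases apart on chromosome 13 of hg18, on opposite strands. In U251 RNASeq they moved in opposite directions: COL4A1 fell from 222 and 189 to 136.99 and 112 CPM (-0.72 ± 0.14 SE, adjusted p = 0.000727), and COL4A2 rose from 95.9 and 64.4 to 123 and 107 CPM (0.52 ± 0.17 SE, adjusted p = 0.0169). COL4A1 reads were 2.32 and 2.94 times the COL4A2 reads in these controls and 1.11 and 1.05 times with miR-137, with no overlap. In the U251 RIPSeq controls that ratio was 0.621 in library 1 and 1.51 in library 2, so it also moved between libraries of a single group. With miR-137 it was 1.03 and 1.06 in RIPSeq. Both genes were lower there with miR-137, apart from the controls but not called. The means went from 500.5 to 282.5 CPM for COL4A1 (-0.82 ± 0.26 SE, adjusted p = 0.195) and from 524.8 to 270.4 CPM for COL4A2 (-0.96 ± 0.31 SE, adjusted p = 0.201). The call of COL4A1 was lost in the joint fit, and that of COL4A2 without the filter and in the joint fit.

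In U343 RNASeq, COL4A1 had 193 and 185 CPM in control and 95.8 and 193 CPM in the 2 miR-137 libraries, which disagreed (-0.39 ± 0.35 SE, adjusted p = 0.472). COL4A2 fell there from 99.5 and 90.2 to 60.5 and 66.5 CPM (-0.58 ± 0.10 SE, adjusted p = 0.0297), a call lost under the replicate block. In U343 RIPSeq, COL4A1 rose from 194 and 205 to 258 and 310.3 CPM (0.51 ± 0.11 SE, adjusted p = 0.00569) and COL4A2 was not called (-0.12 ± 0.13 SE, adjusted p = 0.482). In control cells, COL4A2 was higher in RIPSeq than in RNASeq in both lines (2.87 ± 0.43 SE, adjusted p = 0.0218 in U251 and 0.58 ± 0.11 SE, adjusted p = 0.00393 in U343). COL4A1 was called in U251 alone (1.43 ± 0.33 SE, adjusted p = 0.0408). Neither gene differed between the lines in control RNASeq by the test, with log2 fold changes of -0.07 ± 0.10 SE, adjusted p = 0.537 and 0.30 ± 0.16 SE, adjusted p = 0.12.

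The remaining type IV chains replace the common ones in kidney, lung, eye and other basement membranes. COL4A3 and COL4A4, whose spans lie 5 bases apart on chromosome 2 of hg18, were both lower with miR-137 in U251 RNASeq. COL4A3 went from 4.28 and 4.10 to 2.71 and 2.13 CPM (-0.79 ± 0.26 SE, adjusted p = 0.0178), a call lost with DESeq2 and in the joint fit. COL4A4 went from 5.43 and 4.47 to 3.52 and 2.66 CPM (-0.68 ± 0.25 SE, adjusted p = 0.0324). The call of COL4A4 held only under the replicate block among the 6 other settings with all libraries. In U343 RIPSeq COL4A3 rose from 1.26 and 1.30 to 2.10 and 2.86 CPM (0.95 ± 0.22 SE, adjusted p = 0.00768), and COL4A4 gave 0.0049 ± 0.19 SE, adjusted p = 0.986.

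COL4A5 and COL4A6 share a start region on chromosome X, with 449 bases between their hg18 spans. Both rose in U251 RNASeq. COL4A5 went from 46.3 and 40.4 to 72.8 and 54.9 CPM (0.56 ± 0.15 SE, adjusted p = 0.00696). COL4A6 went from 17.7 and 15.1 to 24.8 and 19.7 CPM (0.44 ± 0.17 SE, adjusted p = 0.0347). Both calls were lost without the filter and in the joint fit, and that of COL4A6 also with DESeq2. In U251 RIPSeq both genes were lower with miR-137, apart from the controls but not called. The means went from 69.3 to 37.3 CPM for COL4A5 (-0.89 ± 0.28 SE, adjusted p = 0.195) and from 41.7 to 16.2 CPM for COL4A6 (-1.36 ± 0.24 SE, adjusted p = 0.0877). In U343 COL4A5 fell in RNASeq, from 71.8 and 58.9 to 42.6 and 35.8 CPM (-0.74 ± 0.15 SE, adjusted p = 0.0385), and in RIPSeq, from 65.8 and 70.9 to 27.0 and 31.7 CPM (-1.22 ± 0.10 SE, adjusted p = 5.41e-05). The difference between the lines in RNASeq passed the test of the interaction (-1.30 ± 0.25 SE, adjusted p = 0.00762). COL4A6 was near 0.736 and 0.554 CPM in U343 RNASeq controls, far below U251 (-4.59 ± 0.21 SE, adjusted p = 1.12e-07), while COL4A5 was slightly higher in U343 (0.65 ± 0.12 SE, adjusted p = 0.000871).

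Type VI collagen links cells to the surrounding matrix, and COL6A1, COL6A2 and COL6A3 encode its main chains. COL6A1 had 1606 and 1095 reads in the U251 RNASeq controls and 297804 and 266919 in those of U343, at 103 and 67.0 and 6449 and 7045 CPM (6.37 ± 0.25 SE, adjusted p = 4.36e-08). COL6A2 (4.76 ± 0.23 SE, adjusted p = 1.41e-07) and COL6A3 (4.67 ± 0.14 SE, adjusted p = 1.03e-08) were likewise higher in U343. COL6A6, a minor chain, was lower in U343 (-1.27 ± 0.40 SE, adjusted p = 0.0148), a call that DESeq2 did not make.

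In U251 RNASeq all 4 type VI genes tested rose with miR-137. COL6A3 rose from 14.6 and 12.8 to 54.3 and 34.6 CPM (1.70 ± 0.20 SE, adjusted p = 8.71e-06), COL6A1 from 103 and 67.0 to 145 and 160.4 CPM (0.85 ± 0.17 SE, adjusted p = 0.00089) and COL6A2 from 49.6 and 29.9 to 69.0 and 73.0 CPM (0.84 ± 0.19 SE, adjusted p = 0.00185). COL6A6 rose from 0.958 and 0.979 to 1.90 and 1.86 CPM (0.95 ± 0.34 SE, adjusted p = 0.0294), a call lost without any 1 of the 4 libraries. In U343 none of the type VI genes tested was called in either assay: COL6A1 had 6449 and 7045 CPM in control and 5149 and 6359 CPM in miR-137 RNASeq libraries (-0.23 ± 0.12 SE, adjusted p = 0.244), and 11562 and 10221 against 9661 and 7176 CPM in RIPSeq (-0.37 ± 0.21 SE, adjusted p = 0.18). The difference between the lines in RNASeq passed the test for COL6A1 (-1.09 ± 0.27 SE, adjusted p = 0.0205), COL6A2 (-0.9997 ± 0.30 SE, adjusted p = 0.0415) and COL6A3 (-1.98 ± 0.31 SE, adjusted p = 0.0039).

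In U251 RIPSeq, COL6A1 stood at 891 and 382 CPM in the control libraries and at 240.2 and 250.8 CPM with miR-137, without a call (-1.37 ± 0.44 SE, adjusted p = 0.201). COL6A3 had 36.0 and 27.9 CPM in control and 63.2 and 62.9 CPM in miR-137 libraries, also without a call (0.98 ± 0.26 SE, adjusted p = 0.155). In control cells, RIPSeq held more COL6A1 than RNASeq in U251 (3.07 ± 0.53 SE, adjusted p = 0.0253) and in U343 (0.80 ± 0.11 SE, adjusted p = 0.00113), and more COL6A2 in both (2.17 and 0.64, adjusted p = 0.0325 and 0.00207). COL6A3 was called in U251 alone (1.37 ± 0.33 SE, adjusted p = 0.0442).

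Of the short-chain network collagens, COL8A1 and COL8A2 encode type VIII collagen of vessel walls and of the cornea, and COL10A1 encodes the collagen of growth-plate cartilage. COL8A1 marked U251, with 199 and 183 CPM in the RNASeq controls against 0.715 and 0.897 CPM in U343 (-7.84 ± 0.15 SE, adjusted p = 2.02e-09). In U343 RIPSeq it rose with miR-137 from 0.377 and 0.246 to 0.897 and 0.817 CPM (1.44 ± 0.31 SE, adjusted p = 0.00532), and COL8A2 rose there from 3.17 and 2.73 to 5.76 and 5.28 CPM (0.90 ± 0.16 SE, adjusted p = 0.0019). In U343 RNASeq neither was called (0.25 and 0.61). COL10A1 rose in U251 RNASeq from 2.81 and 2.75 to 6.68 and 4.44 CPM (1.00 ± 0.26 SE, adjusted p = 0.00476), a call that DESeq2 did not make. Its span lies within that of NT5DC1 on the opposite strand, with 7212 bases in common. Whether exons of these genes overlap was not examined, and without strand reads on such exons could not be told apart. The lower share of COL10A1 in RIPSeq, -2.14 ± 0.42 SE, adjusted p = 0.0313 in U251 and -1.04 ± 0.33 SE, adjusted p = 0.0319 in U343, carries that limit too.

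COL7A1 encodes the anchoring fibrils that tie epidermis to dermis. It rose in U251 RNASeq from 61.2 and 37.2 to 156 and 159 CPM, 3.20-fold (1.68 ± 0.19 SE, adjusted p = 5.99e-06), and the call held in all 6 other settings and without each library. In U343 RNASeq it had 6.11 and 7.18 against 4.70 and 5.35 CPM (-0.40 ± 0.18 SE, adjusted p = 0.18), and the effects in the lines differed (-2.09 ± 0.31 SE, adjusted p = 0.00299). The U251 RIPSeq controls, at 151 and 58.3 CPM, lay on both sides of the miR-137 libraries at 93.0 and 84.2 CPM (-0.24 ± 0.50 SE, adjusted p = 0.828). In control RNASeq, U343 held less of it than U251 (-2.84 ± 0.23 SE, adjusted p = 3.26e-06).

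FACIT collagens bridge fibrils to other matrix molecules. COL12A1 took the largest share of collagen reads in U251 RNASeq, 22.0% and 23.4% in the controls and 16.1% and 11.5% with miR-137. It fell there from 558 and 482 to 405 and 250.03 CPM (-0.67 ± 0.19 SE, adjusted p = 0.00896) and rose in U343 RNASeq from 70.1 and 72.0 to 109.8 and 96.5 CPM (0.54 ± 0.10 SE, adjusted p = 0.0342). The U251 call was lost without the filter and in the joint fit, and the U343 call under the replicate block and in the joint fit. The test of that difference gave 1.196 ± 0.30 SE, adjusted p = 0.023. The U343 RIPSeq values of 101 and 82.0 and 86.4 and 59.7 CPM gave no call and pointed down (-0.33 ± 0.18 SE, adjusted p = 0.151).

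COL14A1 fell with miR-137 in U251 RNASeq, from 103 and 87.2 to 57.9 and 38.0 CPM (-0.99 ± 0.18 SE, adjusted p = 0.000337), and in U343 RIPSeq, from 35.5 and 37.9 to 22.8 and 26.6 CPM (-0.57 ± 0.10 SE, adjusted p = 0.00231). In U343 RNASeq it was not called (-0.15 ± 0.15 SE, adjusted p = 0.517), and in U251 RIPSeq 100.5 and 93.6 CPM stood against 35.1 and 34.7 CPM (-1.47 ± 0.24 SE, adjusted p = 0.0747). Both calls held in all 6 other settings and without each library.

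COL16A1 was scarce in control cells of both lines and higher with miR-137 in 3 experiments. In U343 RNASeq it rose from 1.82 and 1.77 to 7.12 and 6.98 CPM (1.97 ± 0.16 SE, adjusted p = 0.00744), and in U343 RIPSeq from 0.931 and 0.885 to 4.53 and 3.52 CPM (2.14 ± 0.21 SE, adjusted p = 0.000117). In U251 RNASeq it rose from 0.575 and 0.734 to 1.35 and 2.13 CPM (1.40 ± 0.41 SE, adjusted p = 0.0094), where 21 control reads and 39 miR-137 reads gave a ratio of 2.66 (95% exact interval 1.53 to 4.76) and neither DESeq2 nor the joint fit made the call. In the U251 RIPSeq libraries it stood at 3.05 and 1.22 CPM in control and 2.14 and 2.58 CPM with miR-137, which overlap.

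COL21A1 went opposite ways in the lines. In U343 RNASeq it rose from 0.260 and 0.185 to 2.11 and 0.896 CPM, 19 reads against 127 over both libraries (ratio 6.65, 95% exact interval 4.09 to 11.4; 2.73 ± 0.57 SE, adjusted p = 0.039). In U251 RNASeq it fell from 3.51 and 2.20 to 1.90 and 1.07 CPM (-0.94 ± 0.36 SE, adjusted p = 0.0369), a call that held in 1 of 5 other settings. The test of the difference gave 3.66 ± 0.74 SE, adjusted p = 0.01. COL9A2, a chain of the cartilage collagen type IX, was far higher in U343 (31.6 and 29.8 CPM in RNASeq controls against 0.767 and 0.428 in U251; 5.74 ± 0.22 SE, adjusted p = 3.73e-08), and rose there to 61.8 and 44.5 CPM (0.79 ± 0.18 SE, adjusted p = 0.0495). In U343 RIPSeq it rose from 29.2 and 32.5 to 50.7 and 49.1 CPM (0.69 ± 0.089 SE, adjusted p = 0.000428). COL9A3 was not called with miR-137 in any experiment, and its U251 RIPSeq controls were 28.7 and 9.77 CPM.

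Transmembrane collagens carry the helix on a cell-surface anchor. COL13A1 gave the largest change with miR-137 among the 32 collagens tested in U251 RNASeq, from 1.66 and 1.28 to 9.75 and 13.9 CPM (3.00 ± 0.26 SE, adjusted p = 7.19e-07). That is 47 reads in the controls against 265, a ratio of 8.07 (95% exact interval 5.90 to 11.3, counting error only), and the call held in all 6 other settings and without each library. In U251 RIPSeq the controls had 4.08 and 1.86 CPM and the miR-137 libraries 8.23 and 8.13 CPM, apart but not called (1.47 ± 0.43 SE, adjusted p = 0.179). U343 RNASeq controls held 0 and 1 reads of it, and it was not tested for an effect of miR-137 there.

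COL17A1, a chain of the hemidesmosomes that fasten epithelial cells, was the only collagen whose response to miR-137 differed between the assays in U251 (-2.24 ± 0.29 SE, adjusted p = 0.0444), and 1 of 5 other settings kept that call. It rose in RNASeq, from 39.5 and 35.5 to 58.4 and 49.6 CPM (0.52 ± 0.14 SE, adjusted p = 0.00555), whereas in RIPSeq it stood at 300.2 and 256 in control and 88.2 and 87.4 CPM with miR-137 (-1.66 ± 0.23 SE, adjusted p = 0.0585). Over the collagens, 1 of 36 tested was called lower for this interaction and 0 higher, beside 0.0281% of all genes lower and 0.106% higher; at an unadjusted p under 0.05 there were 15 lower and 1 higher, beside 2688 of 14210 genes. DESeq2 called 9 collagens lower, beside 335 lower and 307 higher of 19948 genes. For the assays in U343, edgeR called 0 of 30 collagens, beside 0% of all genes lower and 0.00649% higher, with 3 lower and 4 higher at an unadjusted p under 0.05 and 1 called lower by DESeq2. Over all genes, 2712 of 15413 had an unadjusted p under 0.05, and DESeq2 called 235 lower and 129 higher of 20170.

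COL18A1, which encodes the basement membrane collagen that releases endostatin, rose in U251 RNASeq and fell in U343. The U251 values went from 81.1 and 48.997 to 141 and 145 CPM (1.14 ± 0.19 SE, adjusted p = 0.00017). In U343 they went from 163 and 175 to 119 and 119 CPM in RNASeq (-0.51 ± 0.094 SE, adjusted p = 0.0306) and from 259.8 and 301 to 187 and 176 CPM in RIPSeq (-0.63 ± 0.10 SE, adjusted p = 0.00148). In U251 RIPSeq it went from 780.5 and 391 to 302 and 332 CPM, lower and apart but not called (-0.89 ± 0.38 SE, adjusted p = 0.291). Its U251 RNASeq call was lost in the joint fit and its U343 RNASeq call under the replicate block. The effects in total RNA of the lines differed (-1.65 ± 0.29 SE, adjusted p = 0.00536). Among the 32 collagens tested, it also had the largest excess of RIPSeq over RNASeq in U251 controls (3.33 ± 0.51 SE, adjusted p = 0.0218), with 780.5 and 391 CPM in the RIPSeq libraries, and was higher in RIPSeq in U343 (0.84 ± 0.093 SE, adjusted p = 0.000371). The span of COL18A1 shares 5355 bases with NCRNA00175.

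The other 11 collagens reached at most 2.49 CPM in any library, and 6 of them were tested in none of the miR-137 comparisons. They include COL2A1 and COL3A1, main fibrillar collagens of cartilage and of skin and vessels, at no more than 0.729 and 0.472 CPM. COL19A1 and COL25A1 were higher in U251 controls than in U343 (-4.25 and -4.73, adjusted p = 4.61e-05 and 3.8e-05), on 40 against 5 and 35 against 3 reads. None of the 11 was called with miR-137 by edgeR.

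The effect of miR-137 was then compared between the lines. In RNASeq, 13 of 36 collagens tested had an effect that differed, 11 lower and 2 higher in U343 than in U251, beside 12.7% of all genes lower and 12.5% higher. The 11 were COL4A2, COL4A5, COL6A1, COL6A2, COL6A3, COL7A1, COL10A1, COL11A1, COL17A1, COL18A1 and COL27A1, and all but COL11A1 had risen in U251. DESeq2 gave 10 lower and 6 higher, beside 1798 genes lower and 2426 higher of 19848. In RIPSeq, 4 of 39 differed, all higher in U343 (COL4A1, COL5A1, COL8A1 and COL17A1), beside 2.06% of all genes higher and 1.22% lower. Under the replicate block that count was 0, beside 86 genes higher and 54 lower of 15959. It was also 0 in the 6 fits that left out a library other than the U251 controls, where 2 to 3 genes were called at all. Without U251 control replicate 1 it was 17, beside 3068 genes higher and 2436 lower of 16323, and without replicate 2 it was 24, beside 4479 and 4634 of 17249.

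Genes that build, cut or sense collagen were counted from lists. For collagen synthesis and secretion, 10 genes were higher and 11 lower of 26 tested with miR-137 in U251 RNASeq, 0 and 1 of 29 in U251 RIPSeq, 2 and 3 of 27 in U343 RNASeq, and 7 and 6 of 27 in U343 RIPSeq. Over all genes, 28.7% were higher and 29% lower in U251 RNASeq, 0.944% and 0.263% in U251 RIPSeq, 8.31% and 11.7% in U343 RNASeq, and 28.5% and 27.8% in U343 RIPSeq. In U251 RNASeq ADAMTS14, which trims procollagen, rose from 0.894 and 0.673 to 3.34 and 3.99 CPM (2.22 ± 0.32 SE, adjusted p = 6.6e-05), and TLL1, another procollagen protease, fell from 3.83 and 4.10 to 0.812 and 0.533 CPM (-2.55 ± 0.34 SE, adjusted p = 3.18e-05). In U343 TLL2, a relative of TLL1, rose in RNASeq from 3.83 and 2.38 to 17.9 and 17.6 CPM (2.51 ± 0.27 SE, adjusted p = 0.0105) and in RIPSeq from 1.73 and 1.65 to 21.4 and 14.9 CPM (3.42 ± 0.21 SE, adjusted p = 1.21e-05). LOX, which crosslinks collagen, fell in U343 RIPSeq from 352 and 411 to 152 and 162 CPM (-1.28 ± 0.11 SE, adjusted p = 5.61e-05). LEPREL2, a prolyl hydroxylase, fell in U343 RNASeq from 11.95 and 12.8 to 4.30 and 5.87 CPM (-1.28 ± 0.20 SE, adjusted p = 0.0225). In U251 RIPSeq LOXL4, a relative of LOX, fell from 47.9 and 47.7 to 6.05 and 6.51 CPM (-2.93 ± 0.25 SE, adjusted p = 0.027).

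For collagen breakdown, 6 genes were higher and 4 lower of 12 tested in U251 RNASeq, 2 and 0 of 12 in U251 RIPSeq, 1 and 0 of 10 in U343 RNASeq, and 5 and 2 of 11 in U343 RIPSeq, beside the same shares of all genes. MMP13, a collagenase, rose in U251 RNASeq from 0.639 and 0.428 to 20.0 and 18.5 CPM (5.15 ± 0.26 SE, adjusted p = 3.39e-09) and in U251 RIPSeq from 2.40 and 3.90 to 86.0 and 93.8 CPM (4.83 ± 0.38 SE, adjusted p = 0.0256). MMP1, another collagenase, rose in both as well, from 0.639 and 1.53 to 6.497 and 6.75 CPM in RNASeq and from 1.84 and 2.11 to 9.19 and 9.42 CPM in RIPSeq. In U343 RIPSeq both passed the test at under 1.21 CPM. TIMP1, an inhibitor of these proteases, rose in U343 RNASeq from 43.7 and 42.7 to 58.9 and 61.1 CPM (0.47 ± 0.086 SE, adjusted p = 0.0296). Of the collagen receptors, 2 were higher and 1 lower of 6 tested in U251 RNASeq, 0 of 7 were called in U251 RIPSeq and 0 of 8 in U343 RNASeq, and 3 were higher and 2 lower of 8 in U343 RIPSeq. ITGA2, the integrin chain that binds type I collagen, rose in U251 RNASeq from 59.3 and 58.4 to 480 and 353 CPM (2.82 ± 0.16 SE, adjusted p = 1.6e-08) and in U343 RIPSeq from 24.2 and 20.5 to 53.2 and 44.8 CPM (1.13 ± 0.12 SE, adjusted p = 0.00017). DDR2 rose in U251 RNASeq (0.80 ± 0.20 SE, adjusted p = 0.00351) and ITGA1 in U343 RIPSeq (1.04 ± 0.17 SE, adjusted p = 0.00137).

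The study's own rule for targets, applied to the collagens, set each control library against each miR-137 library. A gene was lower when Fisher's exact test passed an adjusted p of 0.001 with more than a 2-fold odds ratio in every one of the 4 pairings, and the mirrored rule was used for higher. The test is between single libraries, so replicate spread does not enter it. By it, 0 collagens were lower and 6 higher in U251 RNASeq (COL1A1, COL6A3, COL7A1, COL13A1, COL18A1 and COL27A1), beside 2.21% and 6.14% of all genes. In U251 RIPSeq, 6 were lower (COL4A4, COL4A6, COL5A1, COL14A1, COL17A1 and COL25A1) and 1 higher (COL24A1), beside 1.49% and 3.47%. In U343 RNASeq, 1 was lower (COL11A1) and 3 higher (COL1A1, COL16A1 and COL21A1), beside 2.88% and 1.51%. In U343 RIPSeq, 1 was lower (COL11A1) and 4 higher (COL1A1, COL5A3, COL16A1 and COL24A1), beside 3.4% and 4.83%.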

How the data were processed

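Libraries of total RNA (RNASeq) and of RNA bound to PABP (RIPSeq) from U251 and U343 cells were analysed. The authors aligned reads to hg18 with RMAP and deposited raw read counts per RefSeq gene, counted on a single merged transcript model per gene. The deposited counts carry no normalization and no strand. The tables hold 10156675 to 45134766 counted reads per library, and intervals given for ratios of reads are 95% exact intervals that cover counting error only.

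Groups followed the labels for cell line, assay and mimic. Each comparison was fitted over all genes with edgeR 4.0.16 (R 4.3.3), using TMM scaling, filterByExpr, the quasi-likelihood test and Benjamini-Hochberg adjustment with a threshold of 0.05. Each mimic comparison used the 4 libraries of its experiment, and differences of effects used an interaction term over 8 libraries. Alternatives were DESeq2 1.42.0, upper-quartile scaling, a filter of 1 read, a filter of 50 reads on average, a joint fit, a replicate block and leaving out each library. The study's pairwise rule used Fisher's exact test (SciPy 1.17.1). Scripts were tested on simulated counts with 200 changed genes.

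Values per library are given for the 31 collagens with a mean of at least 10 CPM in a group or a call in a miR-137 comparison, and for the 2 called genes of largest absolute log2 fold change in each list of collagen synthesis, breakdown and receptors. For many of these genes not every experiment is given. The other collagens are given by counts and ranges, and a few of them are named where a count turned on them, chosen after their values were seen. The collagens and all lists were chosen with earlier results of these data known. Same-numbered libraries deviated together with a correlation of -0.26 to 0.44 over the 7 comparisons of groups, so the numbers were not taken as pairs.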

Additional observations from a re-analysis of the deposited data

Results flagged for a closer look

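The effect of miR-137 differed between the cell lines, by the interaction test, for 13 collagens in RNASeq. On the log2 scale, U343 minus U251, the difference was -1.11 for COL4A2, -1.30 for COL4A5, -1.09 for COL6A1, -0.9997 for COL6A2, -1.98 for COL6A3, -2.09 for COL7A1 and -1.49 for COL10A1. It was -0.99 for COL11A1, -0.82 for COL17A1, -1.65 for COL18A1 and -1.65 for COL27A1, and it was above 0 for COL12A1 (1.196) and COL21A1 (3.66). COL7A1, COL6A3, COL11A1, COL18A1, COL27A1, COL4A5 and COL21A1 kept the call without each of the 8 libraries, and COL10A1 kept it without 1 of the 8. In RIPSeq the difference was 1.39 for COL4A1, 2.41 for COL5A1, 1.85 for COL8A1 and 2.02 for COL17A1, each kept without 2 of the 8 libraries. The effect on COL17A1 differed between the assays in U251 by -2.24 (RIPSeq minus RNASeq). Line and library kit cannot be told apart, and the U343 RNASeq miR-137 library of replicate 1 held interferon genes at the control level, whose part was not tested.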

How the results depend on the processing

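No gene value reversed under any setting tried. Of the values of single genes, DESeq2 lost 16 of 119 calls, the replicate block 14, no filter beyond 1 read 25 and upper-quartile scaling 5. The filter of 50 reads kept 99 and lost 4, and left the rest untested. The joint fit lost 19 of 49. With all libraries kept, the counts of collagens called that moved by over 1.5 times, or from or to 0, were as follows, and the others moved by no more than that. In U251 RNASeq (22), no filter beyond 1 read gave 14 and the joint fit 6. Over all genes, no filter gave 3481 lower and 2747 higher of 18861, and the joint fit 1336 and 1615 of 14210. The main fit had 3780 and 3749 of 13052. In U251 RIPSeq (0), DESeq2 gave 6, the replicate block 4 and the joint fit 14. Over all genes, these gave 325 lower and 516 higher of 19820, 273 and 529 of 14087, and 1213 and 1142 of 14210. The main fit had 37 and 133 of 14087. For RIPSeq against RNASeq in U251, the count of 10 became 0 with no filter beyond 1 read and 16 under the replicate block. Over all genes, these gave 84 lower and 16 higher of 19768, and 2101 and 1935 of 13242, against 813 and 1042 of 13242. In U343 the count of 15 became 9 with DESeq2, beside 3006 lower and 3300 higher of 19890 genes. The main fit had 3606 and 3625 of 14878. For the difference between lines in RIPSeq (4), DESeq2 gave 11 and the replicate block 0. Over all genes, these gave 650 lower and 1189 higher of 20031, and 54 and 86 of 15959. The main fit had 195 and 329 of 15959. For the difference between assays in U251, the count of 1 became 9 with DESeq2, beside 335 lower and 307 higher of 19948 genes. It became 0 with upper-quartile scaling, no filter beyond 1 read, the filter of 50 reads and the replicate block. Over all genes, these called 3 lower and 6 higher, 7 and 25, 3 and 11, and 0 and 0. In U343 the count of 0 became 1 with DESeq2, beside 235 lower and 129 higher of 20170 genes. The study's rule for lower genes in U343 RIPSeq (1) gave 2 with an odds ratio of 1.5, 3 of 4 pairs or TMM-scaled totals. The causes were not tested. 

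The replicate block gave 23 in U251 RNASeq, 9 in U343 RNASeq and 21 in U343 RIPSeq. Over all genes it gave 3929 lower and 3766 higher of 13052, 1456 and 1076 of 15088, and 4787 and 4858 of 14866. It gave 11 for RIPSeq against RNASeq in U343, 30 between lines and 15 for the difference between lines in RNASeq. The counts over all genes were 3255 lower and 3338 higher of 14878, 5886 and 6617 of 14787, and 1927 and 1960 of 15550. Correlations of same-numbered libraries were under -0.1 in U251 RIPSeq and in U343 RIPSeq against RNASeq. They led, after seeing the data, to a crossed replicate block, which called 6 and 17 collagens. Over all genes it called 335 lower and 598 higher of 14087, and 4051 and 4018 of 14878.

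Leaving out each library in turn gave 16 to 20 calls in U251 RNASeq, 0 to 30 in U251 RIPSeq, 0 to 16 in U343 RNASeq, 12 to 18 in U343 RIPSeq, 0 to 31 and 9 to 12 for RIPSeq against RNASeq in U251 and U343, and 28 to 29 between lines. Differences between lines gave 8 to 18 (RNASeq) and 0 to 24 (RIPSeq), and differences between assays 0 to 24 (U251) and 0 to 7 (U343, the 7 without the RNASeq miR-137 library of replicate 2). The study's rule for lower genes gave 0 in U251 RNASeq, 6 to 11 in U251 RIPSeq, 1 in U343 RNASeq and 1 to 2 in U343 RIPSeq. A group left with 1 library was assumed to vary like the others. Where the number of collagens called moved widely, the calls over all genes rose and fell with it. For the study's rule the matching counts over all genes are not given, so its ranges cannot be compared with other genes here. All of these ranges describe how stable the calls were and do not set collagens apart from other genes. These numbers count calls in either direction. They do not show whether collagens split into lower and higher as other genes did. With 2 libraries a group and few reads on the scarce collagens, small changes of these were not detectable.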
